A study of Mus musculus with 36 samples.

Results

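DNA methylation in mouse liver was examined at 9 genes of oxidation and sulfate conjugation. They were 4 flavin-containing monooxygenase genes (Fmo1, Fmo2, Fmo4 and Fmo5) and 5 cytosolic sulfotransferase genes (Sult1a1, Sult1e1, Sult2a1, Sult3a1 and Sult5a1), out of 21418 autosomal protein-coding genes in the annotation. The genes were taken by name, and every CpG from 5 kb upstream of a gene to 1 kb past its end was included. These spans held 1784 of the 18887127 autosomal CpGs in the deposited tables. The CpGs were grouped in fixed windows of 500 bp, and 275 of the 443 windows with a CpG could be tested because they held 3 or more CpGs and were covered by 30 or more reads in every mouse. Of the other windows, 160 had too few CpGs and 8 too few reads, and each of the 9 genes kept between 9 (Sult3a1) and 50 (Fmo5) tested windows.

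The livers came from 24 untreated mice kept on the same diet and light cycle, in 8 groups of 3 animals. Parents were paired for mating and otherwise housed singly, whereas F1 animals were housed in groups by sex. C57BL/6N (B6) and C3H/HeN (C3) sires and dams were crossed in both directions, and 3 families per cross, chosen at random among those with offspring of both sexes, each gave a sire, a dam, a son and a daughter. B6C3F1 animals had B6 dams and C3 sires, and C3B6F1 animals the reverse. Mating began when the parents were 10 weeks old, and the methods place weaning at week 16 and the sacrifice of parents and offspring alike at week 20. The dams had therefore borne and nursed litters, whereas the daughters were virgins. Parents were inbred and offspring hybrid, so that breeding history, generation and housing cannot be told apart between dams and daughters. No RNA was measured in these files, and methylation was measured in whole liver, where a change within a cell type and a change in the share of cell types cannot be told apart.

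Flavin-containing monooxygenases sit in the endoplasmic reticulum and add oxygen to nitrogen and sulfur atoms of drugs and dietary amines. Cytosolic sulfotransferases transfer sulfate from the donor PAPS to phenols, steroids, bile acids and amines, which makes these compounds more soluble and often inactive. Both families are known in mouse liver for genes whose expression differs between males and females, a difference set largely by the sex-specific pattern of growth hormone release.

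Depth differed between animals, with 365740739 to 619888157 reads summed over autosomal CpGs in each animal, or 19.4 to 32.8 reads per CpG. Throughout, reads are summed over CpGs, so that a read over several CpGs is counted once for each. The B6C3F1 sons (at most 25.2 reads per CpG) were all shallower than the B6C3F1 daughters (at least 31.2), whereas the ranges of sires and dams overlapped. Methylation over all autosomal CpGs lay between 75.05% and 77.53%, and the B6 dams were the lowest group at 75.05% to 75.73%. The promoters of 6 hepatocyte genes (Alb, Apoa1, Apoa2, Ttr, Cyp2e1 and Fgb) were methylated at 16.6% to 26.4%, against 72.2% to 87.1% for 5 leukocyte genes and 62.9% to 92.1% for 4 macrophage genes. Promoters of 5 stellate genes lay at 2.2% to 44.3% and those of 5 endothelial genes at 2.24% to 74.5%, so that low promoter methylation was not particular to the hepatocyte list. Summed over its genes, the hepatocyte list lay at 17.0% to 25.4% in sires and 15.4% to 23.9% in dams, and the macrophage list at 75.9% to 83.3% and 76.4% to 82.3%. The stellate list lay at 14.7% to 20.3% in sires and 17.0% to 20.9% in dams, and the endothelial list at 37.8% to 45.4% and 36.0% to 42.5%. Of the 25 marker promoters limma called 0 between dams and sires, between daughters and sons and between dams and daughters. Of all promoters 0.509%, 0.225% and 0.108% were called, so that 0 of 25 is near the share of all. At an unadjusted p below 0.05 there were 0, 2 and 1 of the 25.

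Windows of low methylation made up a larger share of the 9 genes than of the genome at large. Each span includes a promoter, whereas windows of the genome also lie far from genes. The share over the spans of other genes was not counted, so that this is not shown to be particular to the 9. The median window was methylated at 83.6%, close to the 84.9% of all 2580465 tested windows, but 58 of the 275 windows (21.1%) lay below 50%, against 7.31% of all windows. Of these low windows Fmo1 held 18 (of 46 tested) and Fmo5 14 (of 50). Fmo4 held 2 (of 34), Sult1e1 1 (of 13) and Sult3a1 0 (of 9). Below 20% there were 21 windows (7.64%), against 3.08% of all. CpGs were sparse in Sult2a1 (3.14 per kb), Sult3a1 (3.71) and Sult1e1 (4.62) and as dense as in the median gene (11.4) only in Sult5a1 (12.7). Single-nucleotide variants of the B6 and C3 assemblies were listed in the spans of 3 genes, with 41 in Sult5a1, 2 in Sult2a1 and 1 in Fmo4, and 0 in the other 6. Every listed position was counted, without a check that B6 and C3 differ there.

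**Figure D1:**
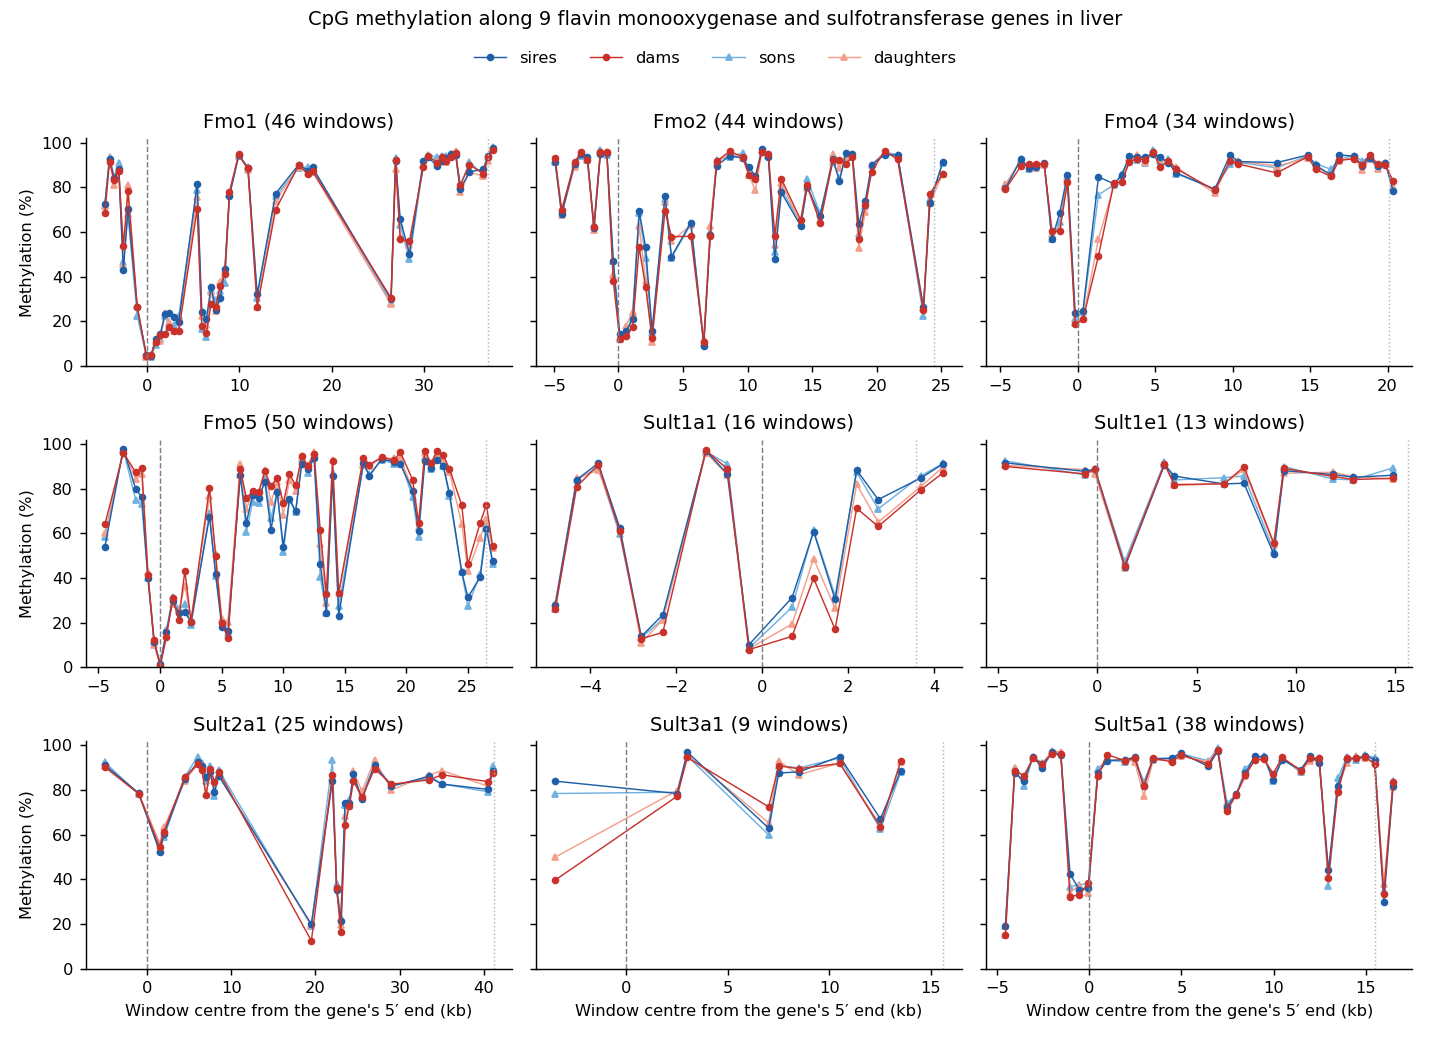
Mean percent methylation of sires, dams, sons and daughters (6 animals each) in each tested 500-bp window, by the distance of the window's centre from the 5′ end of the gene in kb, for the 9 genes. Dashed and dotted lines mark the 5′ and 3′ ends of the gene. Methylation falls around the 5′ end of the Fmo genes and Sult1a1, the dams and daughters lie above the sires and sons through much of Fmo5, and the groups part 3490 bp before the 5′ end of Sult3a1.

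The promoters, taken as the 500 bp on each side of the annotated 5′ end, ranged from nearly unmethylated to highly methylated. Fmo5, an atypical member of its family that inserts oxygen next to carbonyl groups, had the lowest promoter at 2.43% ± 1.46 (SD, n = 24) over 23 CpGs. Fmo1, the main hepatic form in many mammals, was at 5.95% ± 2.06 over 9 CpGs and Sult1a1, which sulfates simple phenols, at 10.8% ± 3.71 over 6 CpGs. Fmo2, best known from lung, was at 13.8% to 27.9% in the 24 animals and Fmo4 at 21.6% ± 5.67. Sult2a1, which sulfates hydroxysteroids and bile acids, had 3 promoter CpGs at 21.2% ± 8.77, with as few as 8 reads in an animal, and could not be tested there. Sult5a1 was intermediate at 50.9% ± 5.67 over 16 CpGs. The promoters of Sult3a1, an amine sulfotransferase, and of Sult1e1, the estrogen sulfotransferase, were methylated at 82.4% ± 3.81 and 87.2% ± 4.31. The ranges of the 24 animals did not overlap between these 2 promoters and the other 7, whereas Fmo2, Fmo4 and Sult2a1 overlapped each other.

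**Figure D2:**
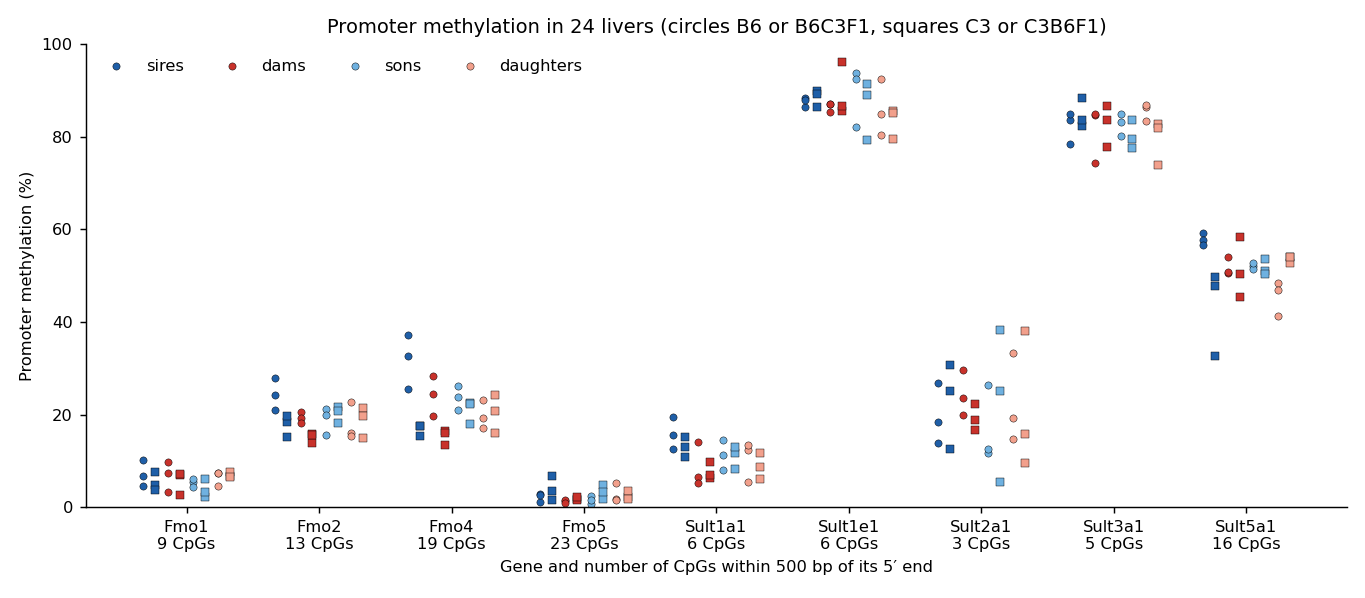
Percent methylation within 500 bp of the 5′ end of each gene (y axis) in each of the 24 animals, coloured by role, with circles for B6 and B6C3F1 and squares for C3 and C3B6F1 animals. All animals lie between 73.8% and 96.2% for Sult1e1 and Sult3a1 and at or under 6.83% for Fmo5, and B6 parents lie above C3 parents for Fmo4.

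The low methylation extended beyond the promoter in some genes. In Fmo1, 8 windows lay below 20%, from the promoter at 4.39% to an intronic window at 3428 bp and again 6428 bp inside the gene, over the first exon of shorter transcripts of Fmo1 (16.9%). In Fmo2 the lowest window (10.6%) was an intronic one 6606 bp inside the gene, and in Sult2a1 it was also intronic, 19508 bp inside the gene at 17.9%. The lowest window of Sult1e1 was at 45.1% and that of Sult3a1 at 63.8%. The last of these lay upstream of the gene and carried the largest difference between dams and sires, averaged over strains, among the 275 windows.

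To ask whether methylation of these genes differed by sex among animals that had bred, dams were compared with sires over both strains. Dams had borne and nursed litters and sires had not, so that sex and this history cannot be told apart here. A window was called where limma's moderated test gave an adjusted p below 0.05 over all windows and the mean percent methylation differed by at least 20 points. In 4 of the 9 genes 5 windows were called, or 1.82% of the 275, beside 0.110% of all windows of the genome. Both windows higher in dams were in Fmo5 (0.0774% of all windows were called higher), and the 3 lower in dams were in Sult3a1, Fmo4 and Sult1a1 (0.0321% were called lower). Over all 275 windows the median difference was -0.22 points, against -0.71 points over all windows of the genome. With a minimum of 10 points 23 windows were called, beside 0.554% of all. Without a minimum size, 28 windows passed the adjusted p, against 0.789% of all windows, and 17 were higher and 11 lower in dams. Promoters, upstream regions and gene bodies were also tested as one value per gene, by adjusted p alone. No promoter of the 8 tested was called by limma (0.509% of all promoters), with 3 at an unadjusted p below 0.05, whereas 2 of 9 upstream regions (3.27% of all) and 4 of 9 gene bodies (16.5% of all) were. Leaving out each animal in turn gave 1 called promoter in 2 of 24 repeats.

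Sult3a1 had the largest difference. The window chr10:33580001-33580500 (mm9) is centred 3490 bp before the 5′ end of the gene, in no annotated exon, and its 4 CpGs lie within the following stretch of the reference, printed because it carried this difference, 5′ to 3′ on the plus strand with CpGs in capitals.

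Sult3a1 upstream, chr10:33580070-33580249: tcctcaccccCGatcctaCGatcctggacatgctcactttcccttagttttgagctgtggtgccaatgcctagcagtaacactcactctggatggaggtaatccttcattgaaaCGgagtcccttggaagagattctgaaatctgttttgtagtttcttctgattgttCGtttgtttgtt

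The 6 sires were methylated at 81.8% (lowest), 83.6% (median) and 87.6% (highest). The 6 dams were at 32.8%, 39.7% and 46.4%, so that the highest dam lay far below the lowest sire. The difference of means was -44.3 points, from 84.0% ± 2.20 to 39.7% ± 5.68 (SD, n = 6 each), with an adjusted p of 1e-10 (log2 ratio -2.93 ± 0.19, SE). Within B6 the difference was -41.0 points and within C3 -47.6 points. Each of the 4 CpGs had a lower value in dams. The 2 CpGs at the start of the stretch were at 91.7% and 95.7% in sires and at 54.8% and 42.3% in dams, each over 135 to 187 reads of the 6 animals. The third was at 82.7% and 36.0% and the fourth at 64.1% and 22.5%. The letters TTCNNNGAA, the core of STAT family sites and the same on both strands, occur once in the stretch, beginning at 33580174. Between their end and the third CpG lies 1 base. They were found in 16.8% of all tested windows, so the match is a description only. Among the other called windows, the second Fmo5 window, which was higher in dams, held 1 match, and the Sult1a1, Fmo4, first Fmo5 and both Fmo1 windows held 0. The whole upstream region of Sult3a1, from 5 kb before the gene to the edge of the promoter, with 10 CpGs, was at 85.7% ± 1.20 in sires and 61.4% ± 3.36 in dams (-24.3 points, adjusted p = 2.45e-12). The 4 CpGs of the called window are among these 10, so that the region is not a separate result. The Sult3a1 promoter was at 83.5% in sires and 82.0% in dams (adjusted p = 0.917).

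Sult1a1 was lower in dams through its gene body. The called window chr7:133818501-133819000 overlaps coding exons and is centred 1195 bp after the 5′ end. Of its 8 CpGs, 7 lie in this stretch of the plus strand. The stretch spans a whole exon, part of a neighbouring exon and intron sequence beside them, and shows how closely the CpGs follow each other there.

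Sult1a1 body, chr7:133818686-133818982: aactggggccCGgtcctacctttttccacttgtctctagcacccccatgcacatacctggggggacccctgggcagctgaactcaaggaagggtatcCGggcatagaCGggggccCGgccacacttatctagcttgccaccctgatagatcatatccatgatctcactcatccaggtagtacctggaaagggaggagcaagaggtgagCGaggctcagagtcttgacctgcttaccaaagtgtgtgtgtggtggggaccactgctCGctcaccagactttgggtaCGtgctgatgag

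Sires were at 56.7%, 61.3% and 64.0% (lowest, median and highest) and dams at 32.4%, 38.6% and 51.4%. The ranges did not overlap, and the means differed by -20.9 points (60.8% ± 3.39 and 39.9% ± 6.29, adjusted p = 8.02e-05). The size stood close to the limit of 20 points, and without dam 1 or 3 of B6 or dam 2 of C3 it fell just under 20 points (19.7 at the least) and the call was lost, with an adjusted p of at most 0.000578. All 8 CpGs had lower values in dams, the largest difference being at 133818801, with 79.8% in sires and 47.2% in dams. All 5 tested windows from 695 to 2695 bp inside the gene passed the adjusted p, with differences of -20.9 to -12.0 points. The gene body, 45 CpGs from the edge of the promoter to 1 kb past the 3′ end, was at 70.5%, 71.5% and 72.5% in sires and at 55.2%, 59.5% and 62.2% in dams. This made -12.4 points (adjusted p = 2.73e-06). The Sult1a1 promoter was at 14.5% in sires and 8.15% in dams (-6.31 points, adjusted p = 0.119). In addition, 1 other protein-coding gene lies within the span of Sult1a1, as is also the case for Sult5a1.

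Fmo5 was the gene whose methylation was higher in dams, over most of its length. Of its 50 tested windows 45 had higher means in dams, and the 15 that passed the adjusted p were all higher, by 4.86 to 30.0 points. The largest of them, chr3:97457001-97457500, lies in the 3′ untranslated exon 24524 bp from the 5′ end and holds 5 CpGs. Sires were at 35.0%, 42.8% and 49.3% and dams at 66.0%, 73.7% and 76.9%, with no overlap. The difference was 30.0 points (42.7% ± 5.56 and 72.7% ± 3.92, adjusted p = 1.13e-08), and it was 27.4 points within B6 and 32.7 points within C3. The 5 CpGs differed in their values. The first was at 83.7% in sires and 82.5% in dams, whereas the fourth and the fifth, 28 bases apart, were at 18.5% and 16% in sires and at 64.7% and 59.5% in dams. A second window of the same exon, chr3:97458501-97459000, was at 40.5% ± 7.04 in sires and 64.7% ± 3.44 in dams (24.2 points, adjusted p = 1.35e-05). It was outside the rule for named windows and is named because it was called. Over the whole body of Fmo5, with 250 CpGs and at least 4753 reads in each animal, sires were at 59.1% to 64.9% and dams at 69.0% to 72.2% (8.71 points, adjusted p = 1.82e-06). The upstream region was also higher in dams (56.1% and 64.4%, 8.26 points, adjusted p = 0.00199). The promoter between them was at 3.07% in sires and 1.62% in dams (adjusted p = 0.59).

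Fmo4, a member of low activity whose substrates are less well known, had a single called window, chr1:164742501-164743000. It lies 1352 bp inside the gene and overlaps a noncoding exon and the start of a shorter transcript, Fmo4-201. Of its 4 CpGs, 2 lie in the intron just before that exon, and their sequence is shown because the methylation of this window also differed by strain.

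Fmo4 first intron, chr1:164742785-164742842: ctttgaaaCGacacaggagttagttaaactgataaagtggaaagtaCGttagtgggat

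The sires were at 78.8%, 84.2% and 92.3% and the dams at 15.0%, 53.1% and 73.2%. The ranges did not overlap, but the dams were spread far more widely (49.4% ± 23.8) than the sires (84.7% ± 4.74). The spread followed strain, with the B6 dams at 67.4%, 68.8% and 73.2% and the C3 dams at 33.0%, 15.0% and 38.8%. The difference over both strains was -35.4 points (adjusted p = 4.33e-07), and it was -17.1 points within B6 and -53.6 points within C3. The test of that difference between strains gave an unadjusted p of 0.000712 and an adjusted p of 0.808. No other of the 34 windows of Fmo4 passed, and its body, at 87.4% in sires and 86.0% in dams, differed by -1.41 points (adjusted p = 0.0117).

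**Figure D3:**
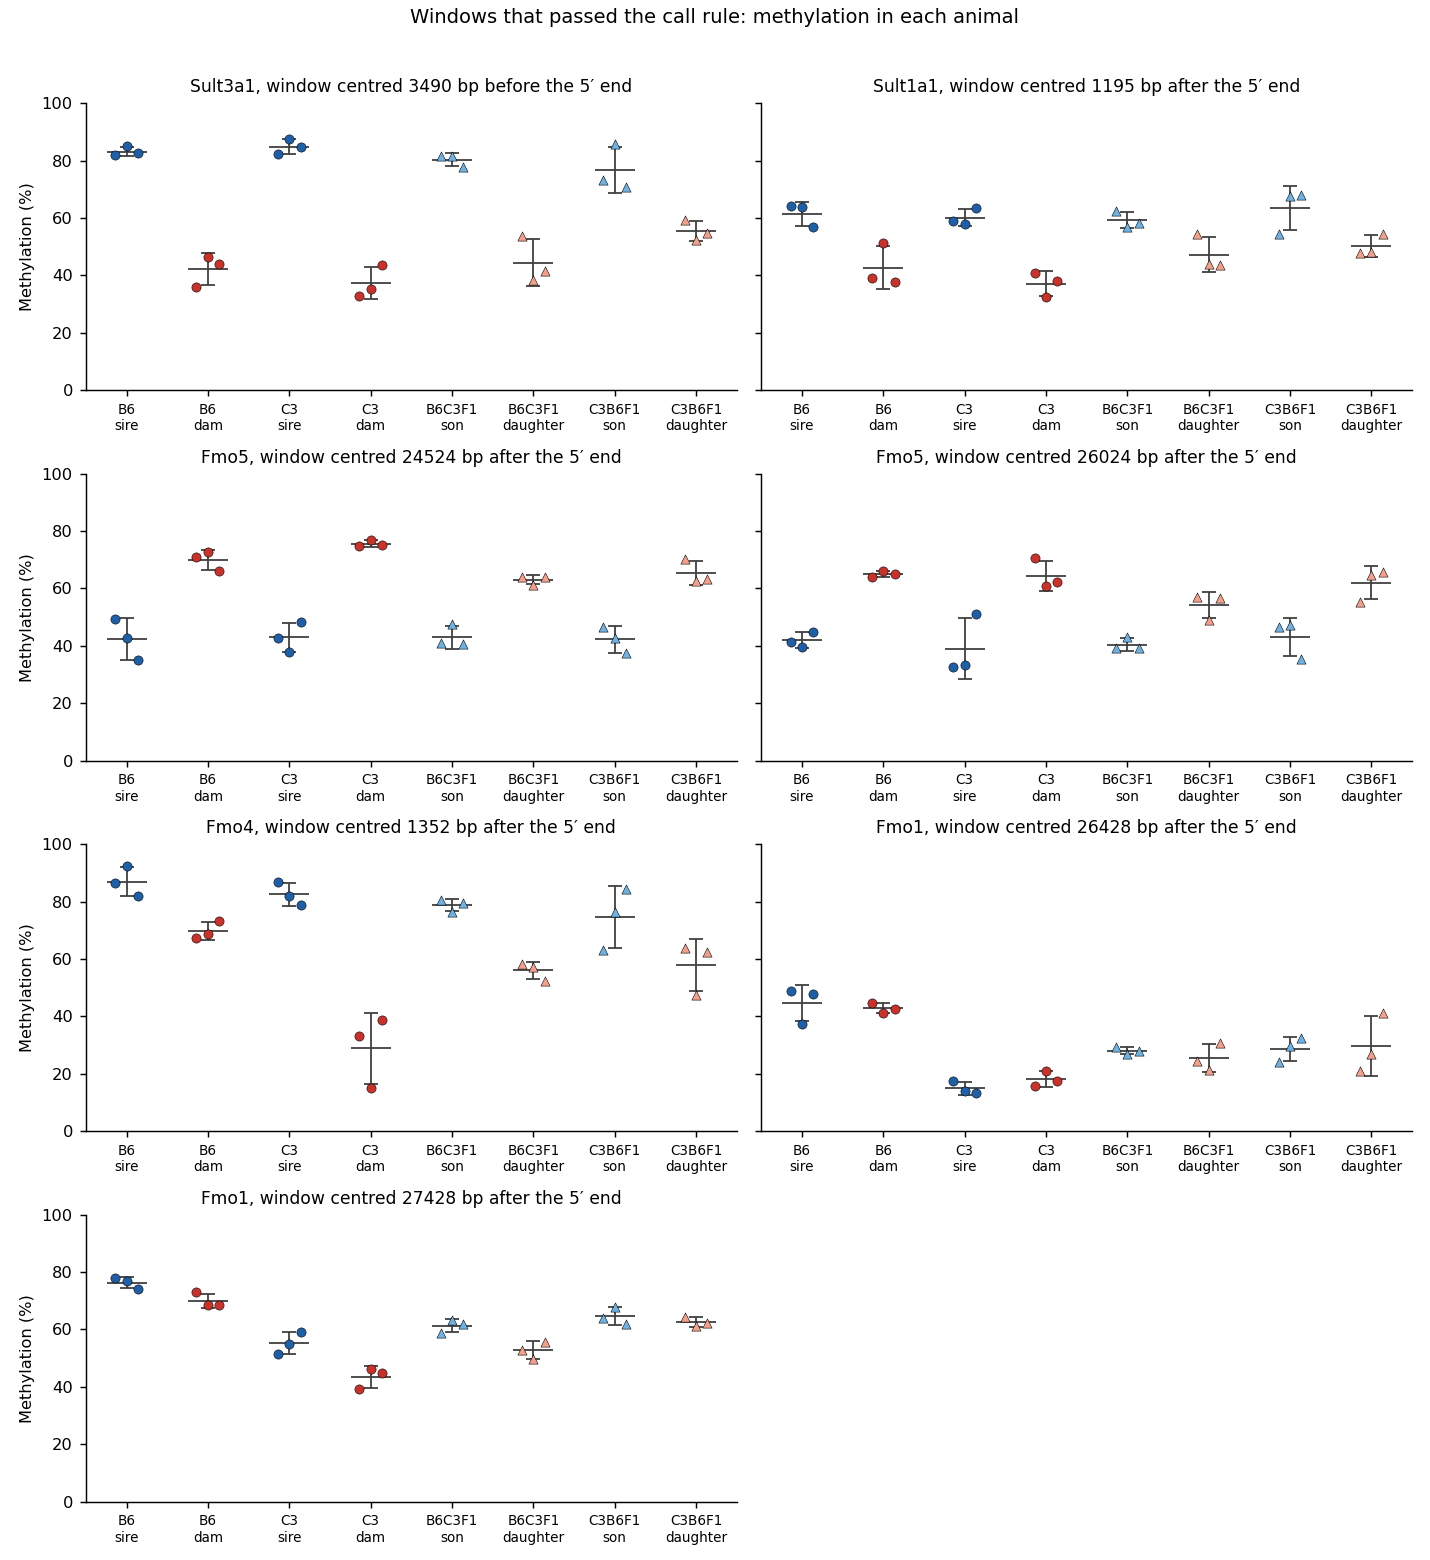
Percent methylation of each animal (points), with mean and SD per group of 3 (bars), in the 7 windows that were called in any comparison. Blue marks males and red females, circles parents and triangles F1 animals. In the first 5 panels, called between dams and sires, these 2 roles do not overlap. In the 2 Fmo1 panels, called between strains, the B6 parents lie above the C3 parents. The windows were chosen by these differences, and the share of all windows without overlap was not counted.

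**Figure D4:**
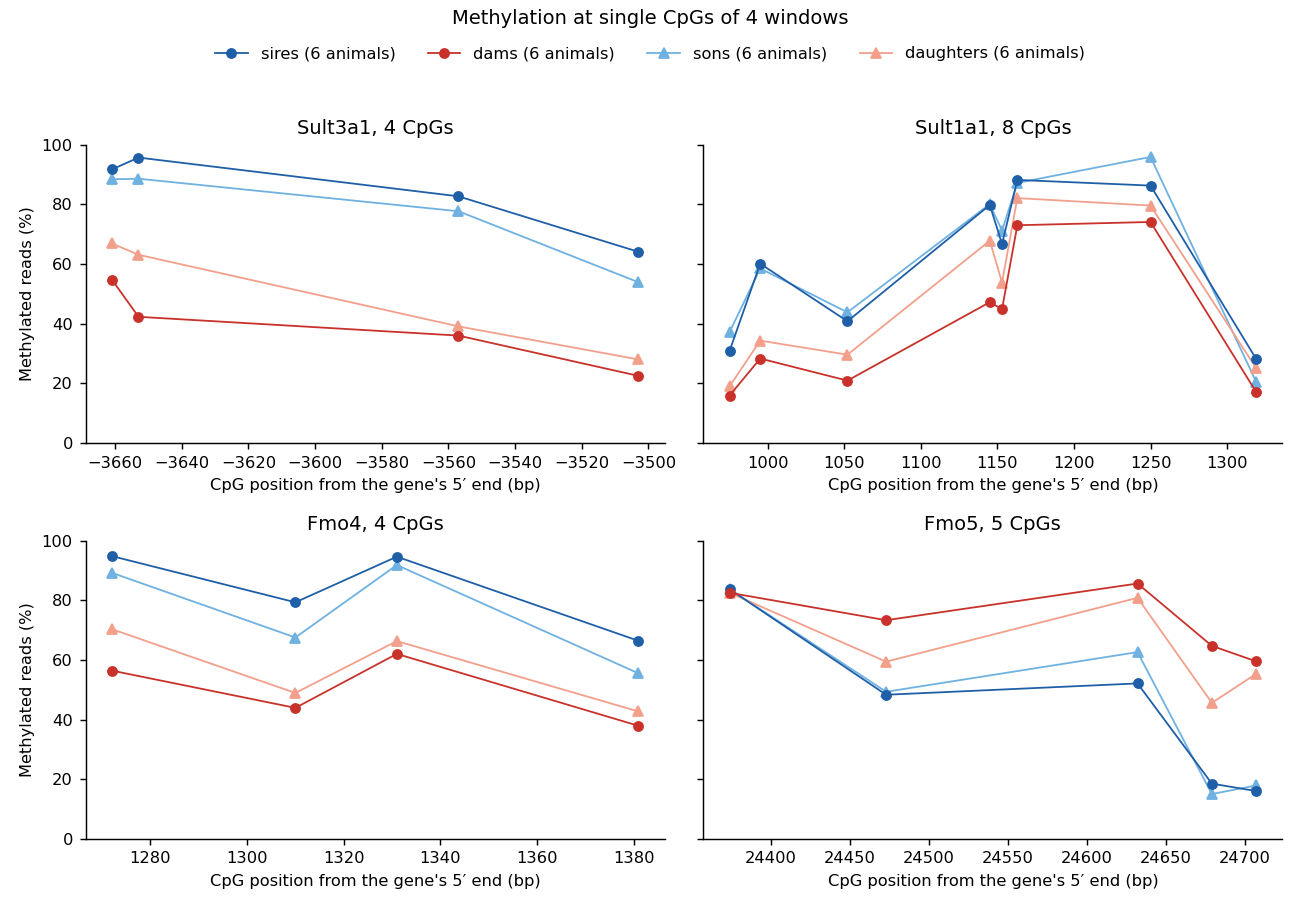
Percent of methylated reads at each CpG (reads of 6 animals summed) by its distance in bp from the 5′ end of the gene, in the called windows of Sult3a1, Sult1a1 and Fmo4 and the first of Fmo5. Dams lie below sires at every CpG of the first 3 genes and above them at all but the first CpG of Fmo5.

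The other 5 genes had no window called between dams and sires, and their largest differences are given as values. In an intron of Fmo2 (chr1:164826501-164827000) sires were at 44.2%, 54.9% and 59.4% and dams at 29.1%, 36.7% and 40.6%. These did not overlap, and the difference of -17.7 points passed the adjusted p (0.00565) but not the minimum size. Of the 44 tested windows of Fmo2, 3 passed the adjusted p, 2 of them lower in dams and 1, in another intron window (chr1:164811501-164812000), higher by 9.64 points (adjusted p = 0.0364). An intronic window of Fmo1 (chr1:164791001-164791500) was at 81.5% ± 3.53 in sires and 70.5% ± 5.38 in dams (-11.0 points, adjusted p = 0.00889), and the ranges overlapped. The Fmo1 body differed by -2.10 points (adjusted p = 0.0204, not passed without sire 3 of B6 or sire 2 or dam 1 of C3) and the Fmo2 body by -1.49 points (adjusted p = 0.0504).

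Sult1e1 showed its largest difference in an intron (chr5:88013001-88013500), with 82.5% ± 5.13 in sires and 89.8% ± 1.69 in dams (7.30 points, adjusted p = 0.0196), and the ranges overlapped. At the last of its 7 CpGs, 47.3% of reads were methylated in sires and 74.3% in dams. In Sult2a1 (chr7:14399001-14399500, an intron) sires were at 68.8%, 71.1% and 87.5% and dams at 54.7%, 63.1% and 78.5% (-9.90 points, adjusted p = 0.183). Sult2a1 lies in a cluster of close copies, Sult2a2 to Sult2a6 and the pseudogene Sult2a7, and whether reads were divided among them was not tested. In Sult5a1 (chr8:125683001-125683500, upstream) sires were at 42.6% ± 4.35 and dams at 32.2% ± 4.28 (-10.3 points, adjusted p = 0.0619). By the quasi-binomial model the adjusted p was 0.012 for this Sult2a1 window and 0.000233 for this Sult5a1 window, both under the minimum size. By limma 0 windows of Sult2a1 and Sult5a1 passed the adjusted p at any size, and 12 of 25 and 17 of 38 windows of these genes had higher means in dams.

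The same question was asked in the F1 animals, whose females were virgins. The called windows were 2, the Sult3a1 upstream window and the Fmo5 window at 97457001, or 0.727% of the 275 beside 0.0571% of all windows. With 10 points 9 were called, beside 0.245% of all. At Sult3a1 the sons were at 70.8%, 79.6% and 85.7% and the daughters at 38.3%, 53.0% and 59.4% (-28.5 points, adjusted p = 1.21e-06). At Fmo5 the sons were at 37.4%, 41.9% and 47.5% and the daughters at 61.2%, 63.6% and 70.1% (21.6 points, adjusted p = 2.09e-05). Neither pair of ranges overlapped. The Fmo4 window missed the minimum size only narrowly, with 76.7% ± 7.31 in sons and 56.9% ± 6.17 in daughters (-19.7 points, adjusted p = 0.016), and the second Fmo5 window differed by 16.4 points (adjusted p = 0.00841). In the Sult1a1 window the sons were at 54.5%, 60.5% and 67.9% and the daughters at 43.6%, 48.1% and 54.5% (-12.6 points, adjusted p = 0.0646 by limma and 0.00241 by the quasi-binomial model), so that the ranges touched. No promoter of 8 was called by limma (0.225% of all), with 1 at an unadjusted p below 0.05. Among gene bodies 2 of 9 were called, beside 1.27% of all. Fmo5 was higher in daughters by 7.17 points (61.0% ± 1.77 in sons and 68.1% ± 1.07, adjusted p = 7.4e-05). The Sult1a1 body was lower in daughters (-5.58 points, 69.9% ± 3.02 and 64.3% ± 1.47, adjusted p = 0.0223). That call was lost in 6 of 24 repeats without an animal (adjusted p up to 0.0599), those without son 3, daughter 1 or daughter 2 of B6C3F1 and those without son 2, daughter 1 or daughter 2 of C3B6F1. The Sult3a1 upstream region, which includes the called window, was lower in daughters by 18.1 points (adjusted p = 9.26e-10), the 1 call among 9 such regions beside 0.542% of all.

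Parents and F1 animals were different mice, although the fit shares one estimate of spread and the F1 descend from these crosses. Of the 28 windows that passed the adjusted p between dams and sires, all 28 had the same sign between daughters and sons, and 8 of them were among the 9 windows that passed there (0.288% of all windows passed). Over the genome 84.1% of the 20362 such windows had the same sign, 96.6% of those higher in dams and 69.4% of those lower. Of the 8, 6 were in Fmo5 and the other two were the Sult3a1 and Fmo4 windows. All 5 called windows, which the parents' values chose, had smaller differences in the F1 animals. The test of the difference between the sex differences called none of the 275 windows, beside 0.0149% of all, with 34 at an unadjusted p below 0.05 and 0 called by the quasi-binomial model. For Sult3a1 that test gave -15.8 points (adjusted p = 0.331), for Fmo4 -15.6 points (adjusted p = 0.491) and for the Sult1a1 body -6.85 points (adjusted p = 0.0524). By that test limma called 0 of 8 promoters, 0 of 9 upstream regions and 0 of 9 bodies, beside 0.0490%, 0.0190% and 2.34% of all, with 0, 1 and 1 at an unadjusted p below 0.05. Leaving out each animal in turn gave 1 called body in 3 of 24 repeats.

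**Figure D5:**
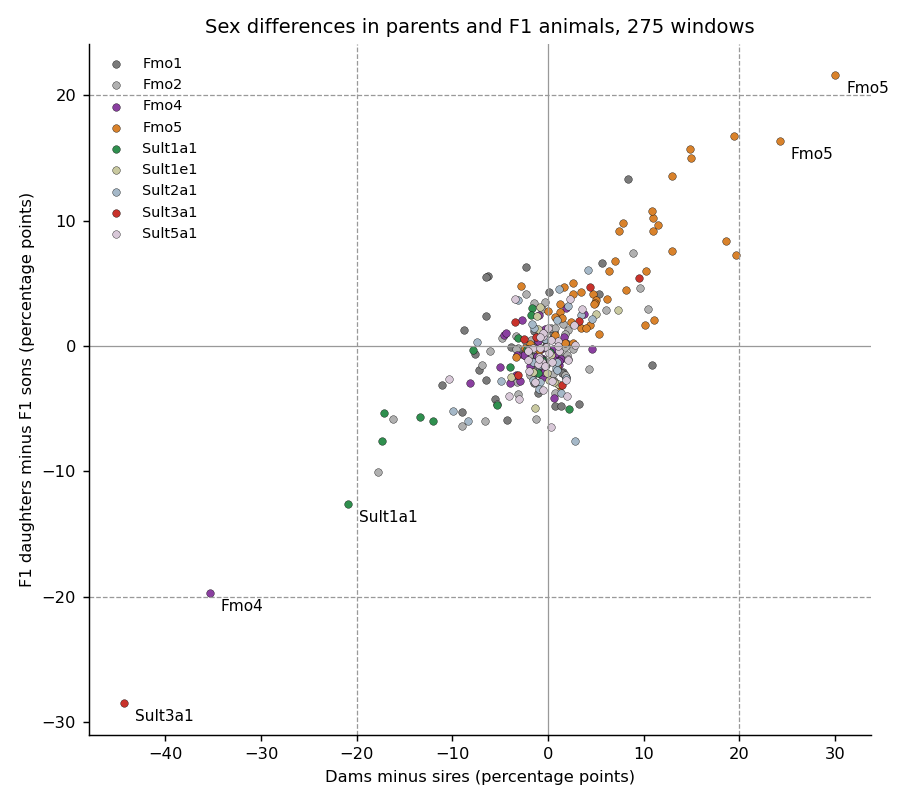
Difference in percent methylation between dams and sires (x axis, percentage points) against that between F1 daughters and sons (y axis) for the 275 tested windows, coloured by gene. Dashed lines mark 20 points. The Sult3a1, Fmo4 and Sult1a1 windows lie at the lower left and those of Fmo5 at the upper right, with larger values on the x axis.

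Dams and daughters, which differed in breeding history and in generation, gave few calls at these genes. Of the 275 windows limma called 0, beside 0.0179% of all, with 34 at an unadjusted p below 0.05 and 0 called by the quasi-binomial model. The differences ran from -10.8 to 8.65 points. The Sult3a1 window was at 39.7% ± 5.68 in dams and 38.3% to 59.4% in daughters (-10.3 points, adjusted p = 0.43), and the Fmo5 window at 72.7% ± 3.92 and 64.2% ± 3.06 (8.55 points, adjusted p = 0.263). Among the regions the body of Sult1a1 was called, 1 of 9 beside 3.97% of all bodies, with 59.0% ± 2.88 in dams and 64.3% ± 1.47 in daughters (-5.32 points, adjusted p = 0.0277). Limma called 0 of 8 promoters (0.108% of all) and 0 of 9 upstream regions (0.276%), with 0 and 1 at an unadjusted p below 0.05. The call of the Sult1a1 body was lost in 7 of the 24 repeats without an animal, those without dam 3 of B6, dam 1 or 3 of C3, daughter 1 or 3 of B6C3F1 and daughter 2 or 3 of C3B6F1.

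Between sires and sons the differences ran from -9.47 to 8.34 points, and limma called 0 of the 275 windows, beside 0.00120% of all, with 17 at an unadjusted p below 0.05 and 0 called by the quasi-binomial model. In the Fmo5 window sires and sons were at 42.7% ± 5.56 and 42.6% ± 3.86. Among promoters, upstream regions and bodies limma called 0, beside 0.0343%, 0.0713% and 0.00477% of all, with 0 at an unadjusted p below 0.05 in each.

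Strain was compared over the parents. The called windows were 3, all higher in B6, or 1.09% of the 275 beside 0.436% of all windows (0.225% higher in B6), and 2 of them were near each other inside Fmo1. The window chr1:164770001-164770500, in an intron and in the last exon of a shorter transcript 26428 bp from the 5′ end, was at 37.3%, 43.7% and 49.0% (lowest, median and highest) in B6 parents and at 13.3%, 16.7% and 21.1% in C3 parents. The difference was 27.2 points (adjusted p = 4.56e-08), with 29.7 points among sires and 24.7 points among dams. The F1 animals were at 28.0% ± 5.50 (n = 12), beside the 30.2% midway between the strains. The second window, chr1:164769001-164769500, holds 7 CpGs, 6 of them in the intronic stretch printed next, and is named because it was called.

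Fmo1 intron, chr1:164769063-164769348: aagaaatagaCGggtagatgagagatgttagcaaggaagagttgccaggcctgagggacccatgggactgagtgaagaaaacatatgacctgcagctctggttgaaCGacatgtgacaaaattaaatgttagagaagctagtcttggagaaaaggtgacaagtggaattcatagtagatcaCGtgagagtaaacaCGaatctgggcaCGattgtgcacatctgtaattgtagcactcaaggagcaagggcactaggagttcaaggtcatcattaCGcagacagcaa

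It was at 73.1% ± 4.01 in B6 parents and 49.3% ± 7.26 in C3 parents (23.8 points, adjusted p = 4.79e-09), and the F1 animals at 60.3% ± 5.19 lay near the 61.2% midway. All 7 CpGs had higher values in B6, the largest difference being 74.4% against 33.3% at 164769258. No single-nucleotide variant was listed in either Fmo1 window, nor in the whole span of Fmo1. Insertions and deletions were not counted, so that the strains may still differ there. The letters TGTTTAC, the core of forkhead factor sites, were searched on both strands and occur in 7.18% of all windows. In the stretch they occur once, on the minus strand (gtaaaca as printed), beginning at 164769251 and ending directly beside that CpG. They also occur once each in the other called Fmo1 window, in the called Fmo4 window and in the upstream Sult5a1 window, and in none of the other named windows. CANNTG, the third set of letters searched, was found in every named window and in 93.8% of all windows.

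The third window called between strains was the Fmo4 window described above. It was 22.6 points higher in B6 (78.3% ± 10.1 and 55.8% ± 30.5, adjusted p = 0.000306), by 4.32 points among sires and by 40.8 points among dams, and the ranges of the strains overlapped. Without dam 2 of C3 the difference was 19.1 points and the call was lost (adjusted p = 0.0014). The Fmo4 promoter was also higher in B6, at 25.6%, 32.6% and 37.2% in the 3 B6 sires and 15.3% to 17.6% in the C3 sires, and at 19.8% to 37.2% in all B6 parents and 13.4% to 17.6% in all C3 parents (11.9 points, adjusted p = 3.6e-05). The Fmo2 promoter was higher in B6 too (21.8% ± 3.60 and 16.4% ± 2.16, adjusted p = 0.033), so that 2 of 8 promoters passed beside 9.03% of all. The Fmo2 promoter call was lost in 6 of 24 repeats (adjusted p up to 0.107), those without sire 1 or 3 or dam 1 or 2 of B6 or sire 2 or dam 1 of C3. The Fmo1 body was higher in B6 by 3.63 points (adjusted p = 0.000114), and the bodies of Sult2a1 and Sult3a1 were lower by 1.72 and 2.72 points. These 3 of 9 are no larger a share than the 39.0% of all bodies, and 33.9% of all were called lower in B6. The upstream regions of Fmo2 and Sult5a1 were lower in B6 by 2.35 and 2.85 points (adjusted p = 0.0192 and 0.049). These 2 of 9 are near the 23.6% of all upstream regions, and 18.1% of all were called lower in B6. The Sult5a1 call was lost in 18 of 24 repeats without an animal (adjusted p up to 0.152), all but those without sire 2 or dam 1 of B6, sire 3 or dam 2 of C3 or son 2 or 3 of B6C3F1. The Fmo2 upstream call was lost without sire 3 or dam 1 of C3. Sult5a1, with the most listed variants, had no called window. With 10 points 7 of the 275 windows were called, near the 2.22% of all. Without a minimum size 17 of the 275 passed the adjusted p, beside 4.75% of all. Among the 25 marker promoters 5 were called between strains, beside 9.03% of all promoters, and their part in these results was not tested.

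The direction of the cross left no call. B6C3F1 and C3B6F1 animals differed by -11.8 to 9.07 points, and 0 of the 275 windows were called by limma or by the quasi-binomial model, beside 0.000426% of all, with 28 at an unadjusted p below 0.05. The largest of these differences was in the upstream Sult5a1 window, at 29.6% ± 4.09 (23.9% to 36.2%) in B6C3F1 and 41.3% ± 3.62 (36.9% to 45.6%) in C3B6F1. The ranges did not overlap, and the adjusted p was 0.588 by limma and 0.01 by the quasi-binomial model, at a difference under the minimum size. The test of whether the dam to sire difference depended on strain also called none of the 275, beside 0.000698% of all, by either model, with 26 at an unadjusted p below 0.05. Among promoters, upstream regions and bodies limma called 0 by cross, beside 0.0147%, 0.00950% and 0.0143% of all, with 1, 2 and 1 at an unadjusted p below 0.05. By strain and role it called 0, beside 0.00490%, 0.00950% and 0.0143% of all, with 1 in each.

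Other genes of both families and of the sulfate donor supply gave 865 tested windows in 22 of 24 genes listed. Between dams and sires 6 were called (0.694%, beside 0.110% of all windows), 5 of them higher in dams by 26.5 to 55.9 points, all 5 in 2810007J24Rik, a gene of the Sult2a cluster that RefSeq names Sult2a8. The sixth, in the brain sulfotransferase Sult4a1, was lower in dams by 20.5 points. All 5 calls between daughters and sons (0.578%, beside 0.0571%) were again in 2810007J24Rik, with 22.1 to 46.7 points more in daughters. Between dams and daughters 1 window was called (0.116%, beside 0.0179%), in Sult4a1, with 20.8 points less in dams. Between strains 6 were called (0.694%, near the 0.436% of all windows), 3 in Sult2b1 (23.5 to 39.1 points lower in B6), 1 in the sulfate donor transporter Slc35b2 (27.8 points lower in B6), and 1 each in Papss2, which makes PAPS (24.3 points higher), and in Bpnt1 (27.1 points higher). The other 4 comparisons called none of the 865 by limma or the quasi-binomial model, with 51 to 70 at an unadjusted p below 0.05.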

How the data were processed

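Liver DNA of 24 mice was analysed by whole-genome bisulfite sequencing. Per the paper's methods and the submitters' processing notes, the authors filtered reads by base quality, aligned them with Bismark 0.7.8 and Bowtie 0.12.8 to mm9 and removed duplicates per library. Deposited for every CpG and animal were raw, unnormalized counts, one of methylated and one of unmethylated reads on both strands, at CpGs present in mm9 and in both strains. The deposited list of mm9, B6 and C3 bases at single-nucleotide variants was used only to count listed variants in a span. All 48 count columns were used, and the FOXA1 ChIP libraries were not analysed here.

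Groups were the strain or cross and sex of the labels, and the paper names the parents as sires and dams. Counts were summed in fixed 500-bp windows of mm9 and in promoters, upstream regions and gene bodies of GENCODE genes of the same assembly. log2((methylated + 1)/(unmethylated + 1)) was fitted with limma 3.58.1 (R 4.3.3, trended and robust variances) with 8 group means over all 24 animals, and p-values were adjusted by Benjamini-Hochberg over all 2580465 windows, or over all 20416 promoters, 21043 upstream regions and 20963 bodies. Adjusted p-values are two-sided and from these fits, except those given for the quasi-binomial model or for repeats without an animal. Windows needed 3 CpGs and 30 reads in each animal, and a call an adjusted p below 0.05 and 20 points. Regions were called by adjusted p alone. They include the reads of the windows within them, so that tests of a region and of its windows are not independent. Counts at an unadjusted p below 0.05 are given without the share of all windows or regions and are descriptions only. Percent methylation is the share of methylated reads in an animal, averaged over animals, and depth sets its precision. The paper's DSS and Metilene were not used.

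The genes, lists and tests were chosen with earlier results of these data known. The named windows were, for each gene and comparison, the called window with the largest difference, or, with none called between dams and sires, the window with the largest difference there. Whether ranges overlapped in a named window is a description only, since its difference chose it. The share of all windows without overlap was not counted. The alternatives were a pseudocount of 5, 100 reads, 5 CpGs, a quasi-binomial model of the counts, 10 points, thinned reads, the replicate number as a block and leaving out each animal in turn. Centring each animal on its median was added after seeing the data. The script was tested on simulated data. Sequences were read from NCBIM37 (mm9), where all 1784 positions are CG.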

Additional observations from a re-analysis of the deposited data

Results flagged for a closer look

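In all, 2 values stood apart from the other animals of their role, out of 48 groups of 6 animals looked at (12 named windows in 4 roles), where chance flags about 1 group in 20. In the Fmo5 window at 97457001, daughter 1 of C3B6F1 was highest among the 6 daughters at 70.1%, and the others lay at 61.2% to 64.1%. In the Sult1e1 window at 88013001, dam 3 of B6 was highest among the 6 dams at 92.9%, and the others lay at 87.8% to 89.7%.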

How the results depend on the processing

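No result reversed. The called windows between dams and sires numbered 2 with 100 reads, 3 with 5 CpGs and 23 with 10 points (0.554% of all windows), and those between daughters and sons 0, 1 and 9, where fewer windows were tested under the first and second. The Sult3a1 and Fmo4 windows, with 4 CpGs each, were not tested under 5 CpGs. They had as few as 55 and 80 reads in an animal, and the Fmo5 window at 97457001 91, so none of these was tested under 100 reads. Between strains 10 points gave 7 (2.22% of all windows). The other alternatives for windows stayed within 1.5 times. Leaving out each animal gave 4 to 7 windows between dams and sires, 2 to 3 between daughters and sons and 2 to 3 between strains. It gave 0 to 1 promoters between dams and sires, 1 to 3 promoters and 0 to 2 upstream regions between strains, 1 to 2 bodies between daughters and sons, 0 to 1 between dams and daughters, 0 to 1 for the difference between the sex differences and 3 to 5 between strains. The upstream calls between strains fell to 1 or 0 in 16 of 24 such repeats. The cause was not tested.

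Families link animals of different groups, but which animals form a family is not given in the labels, and no family term was fitted. Replicate numbers were not taken as pairs in the main fit. The 84 same-numbered pairs correlated in their deviations from the group means at -0.0085 to 0.062. The 168 other pairs correlated at -0.032 to 0.013. These values cannot exclude pairing, because the sampling of reads also enters each deviation. With the replicate block, 1 promoter was called between dams and sires, 1 upstream region between strains and 1 body for the difference between the sex differences, and no other count moved beyond 1.5 times. Windows with fewer than 3 CpGs, 160 of 443, and the Sult2a1 promoter could not be tested at this depth and spacing.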
